A study of Mus musculus with 9 samples.

Results

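Collagens are the main structural proteins of animal extracellular matrix. Each molecule is a trimer of chains, and each chain is encoded by its own gene. The chain genes described here are the 44 genes on the array whose symbol has the form Col, number, a, number, out of 19938 genes with exactly 1 symbol. They were chosen by name and not by signal. They were measured by 46 probe sets, and for Col6a5 and Col6a6, which had several, the probe set with the highest mean was used. By structure, 11 belong to the fibrillar class, 8 to the basement membrane class and 25 to other classes.

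RNA came from 3 groups of mouse cells with 3 arrays each. MEF were embryonic fibroblasts kept in culture at a passage below 3, and the iPS cells were derived from them. R1 is an embryonic stem cell line. The sources used here do not give genotype, strain, the reprogramming factors or the culture conditions of the iPS and R1 cells, including any feeder cells. The 3 arrays of a line are described as biological repeats. Whether those were separate derivations or cultures is not said, and p-values cover only the spread between these samples, which may be technical.

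Fibrillar collagens such as types I, II, III and V are secreted as procollagens, trimmed at both ends and packed into the fibrils of skin, bone, tendon and cartilage. Type IV collagen instead forms the sheet-like network of basement membranes, and types XV and XVIII lie close to those membranes. The other classes decorate fibrils, form beaded filaments or short networks, or span the cell membrane. Fibroblasts are a main source of types I, III, V and VI, and cells of the early mouse embryo are not known for an interstitial collagen matrix.

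Chain genes of interstitial fibrils, of the common type IV network and of type VI filaments were lower in both pluripotent lines than in MEF. Of the 44 chain genes, 17 fell and 0 rose in iPS cells relative to MEF, where 7.58% of all genes were called lower and 5.08% higher. The same count was found in R1 cells, where 17 fell and 0 rose against 7.94% and 5.56% of all genes, and the 17 genes were the same. A call required an adjusted p in limma under 0.05 together with a difference of at least 1 in log2(signal + 16), a scale that understates changes of dim genes. The 17 genes were Col1a1, Col1a2, Col2a1, Col3a1, Col5a1, Col5a2, Col5a3 and Col11a1 of the fibrillar class, Col4a1 and Col4a2 of the basement membrane class, and Col6a1, Col6a2, Col6a3, Col8a1, Col12a1, Col14a1 and Col16a1 of the others. At an unadjusted p under 0.05, 2 chain genes were higher in each comparison, against 5394 of all 19938 genes in iPS and 5642 in R1 cells. Both comparisons use the same MEF arrays, so they are not independent. Fell and rose mean called lower and called higher than MEF, for R1 cells as for iPS cells. Where a pair of differences from MEF is given below without group names, the first is that of iPS and the second that of R1 cells, and ± is the SE of the fit.

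Measured as a share of each class, 8 of 11 fibrillar, 2 of 8 basement membrane and 7 of 25 other genes fell in each comparison. The median difference from MEF in iPS cells was -2.49 for the fibrillar, -0.54 for the basement membrane and -0.18 for the other genes, beside 0.02 for all genes. In R1 cells the medians were -2.52, -0.55 and -0.24, beside 0.02 for all genes. Without MEF replicate 2 the median of the other classes was -0.31 in iPS and -0.37 in R1 cells. Call and signal went together, in part because a gene that is dim in MEF can hardly fall by the minimum of a call. The lowest MEF mean among the genes that fell was 213, that of Col14a1. All uncalled genes except Col7a1, Col15a1 and Col18a1 had group means below that. Whether the class differences go beyond differences in signal was not tested. A decrease of 2 log2 units or more was called for 14 of the 44 in each comparison, against 2.22% of all genes in iPS cells and 2.49% in R1 cells. Without any minimum difference, 28 chain genes passed in iPS cells and 30 in R1 cells, and 48% and 48.9% of all genes did so. In such bulk samples, fewer cells of a type and less RNA per cell cannot be told apart.

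**Figure D1:**
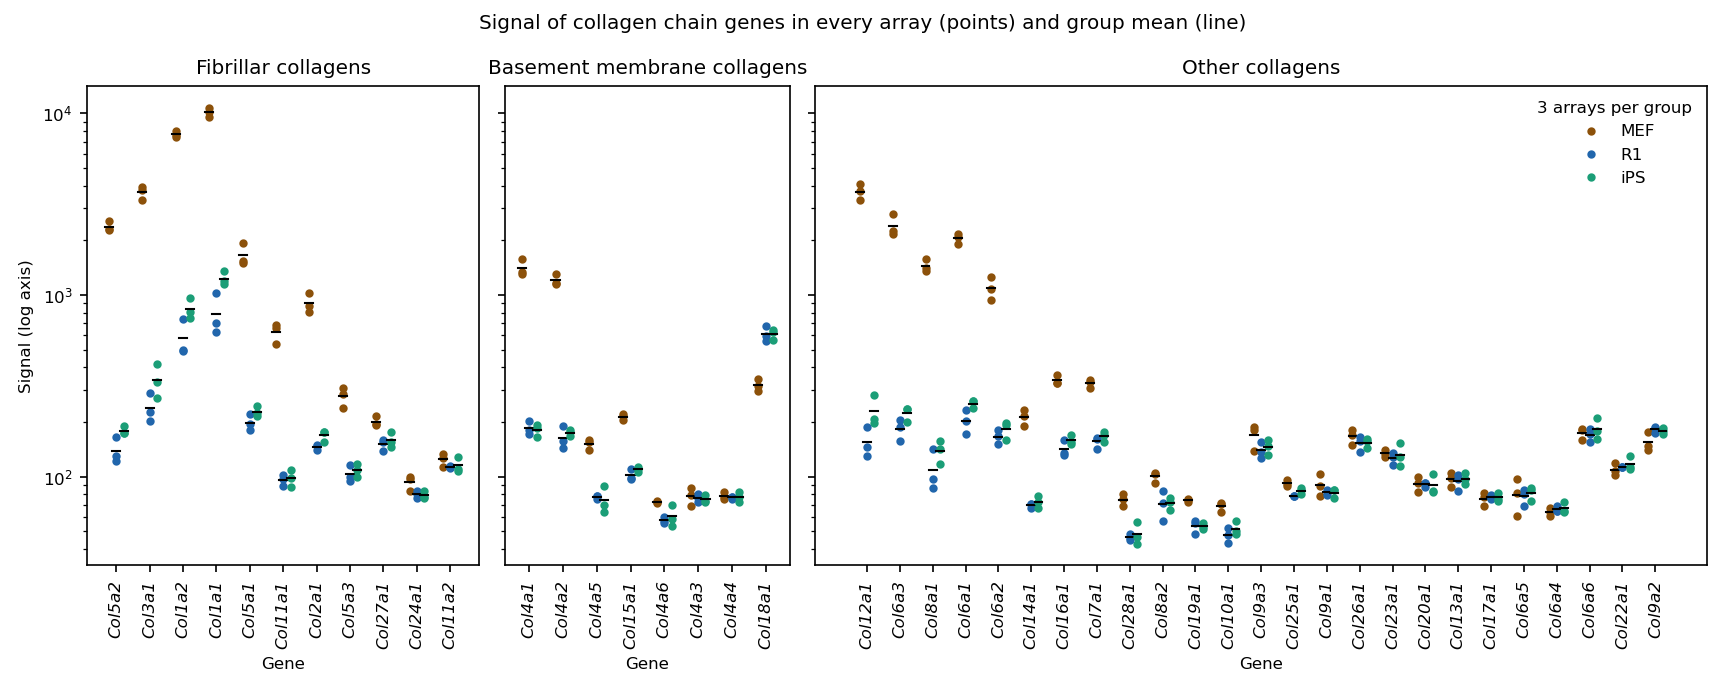
Signal of the 44 collagen chain genes on a log axis, by class, with 1 point per array, a line at each group mean, and genes ordered by the difference between iPS cells and MEF. The 17 genes that fell have every MEF point above every R1 and iPS point, Col18a1 has its MEF points below the others, and most of the remaining genes have overlapping points.

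Pou5f1, the pluripotency factor Oct4, read 46.5 to 64.4 in MEF, 4576 to 4837 in R1 and 3929 to 4240.4 in iPS arrays. All 8 pluripotency markers were called higher in both lines than in MEF. Their sums were 350 to 445 in MEF, 34273 to 35625 in R1 and 28590 to 29968 in iPS arrays. Between the lines 1 of the 8 was called, Zfp42, lower in iPS cells with -2.77 ± 0.11 (SE, adjusted p = 2.92e-06). Below the minimum of a call, Esrrb had -0.50 ± 0.12 (SE, adjusted p = 0.0352) and Utf1 -0.32 ± 0.06 (SE, adjusted p = 0.0152). Only 1 of the 8 had a difference above 0. Of 10 fibroblast markers, 9 were called lower in both pluripotent lines, and their summed signal was 15012 to 17555 in MEF, 1310.3 to 1665 in R1 and 1590 to 1787 in iPS arrays. Thy1 read 1771 to 2091 in MEF and 204 to 280.1 in the pluripotent arrays. Of 7 skeletal muscle markers 5 were lower in both lines, with a sum of 5824 to 6982 in MEF, 613 to 711 in R1 and 631 to 816 in iPS arrays, and all 5 smooth muscle markers were lower, with sums of 18206 to 18742 in MEF, 1005 to 1852 in R1 and 2174 to 2513 in iPS arrays. No marker was at 0, since the lowest value on any array was 4. Their part in the collagen results was not tested. Of 5 osteoblast markers measured, 1 was higher and 0 lower in each pluripotent line, namely the phosphatase Alpl, which embryonic stem cells also express. Of 7 endothelial markers, 1 was higher and 2 lower in each line. Array medians were 78.2 to 83.3.

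Promoter windows from RefSeq (GRCm38.p6), the 250 bases before an annotated start, were held for 35 of the 44 genes in 38 windows. Col1a1, Col2a1, Col4a3, Col5a2, Col9a3, Col12a1, Col14a1, Col22a1 and Col26a1 were not among them. The windows below are those of Col1a2 and Col3a1, main chains of interstitial fibrils that fell, of Col8a1, a network-forming chain that fell, and of Col18a1, the chain gene whose pluripotent arrays read above MEF. Each is written 5′ to 3′ on the gene's strand. Capitals mark a CCAAT box (CCAAT or, on the other strand, ATTGG), a GC box (GGGCGG or CCGCCC) or a TATA box (TATAAA or TTTATA). The window of Col1a2 is chr6:4505368-4505617 on the plus strand, that of Col3a1 is chr1:45311288-45311537 on the plus strand, that of Col8a1 is chr16:57754738-57754987 on the minus strand, and that of Col18a1, at 1 of its 2 starts in the table, is chr10:77166531-77166780 on the minus strand.
Col1a2: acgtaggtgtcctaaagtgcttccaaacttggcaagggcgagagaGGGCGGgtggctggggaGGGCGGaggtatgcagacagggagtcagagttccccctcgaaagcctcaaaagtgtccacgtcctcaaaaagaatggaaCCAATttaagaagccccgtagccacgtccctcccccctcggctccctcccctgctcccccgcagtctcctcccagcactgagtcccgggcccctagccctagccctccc
Col3a1: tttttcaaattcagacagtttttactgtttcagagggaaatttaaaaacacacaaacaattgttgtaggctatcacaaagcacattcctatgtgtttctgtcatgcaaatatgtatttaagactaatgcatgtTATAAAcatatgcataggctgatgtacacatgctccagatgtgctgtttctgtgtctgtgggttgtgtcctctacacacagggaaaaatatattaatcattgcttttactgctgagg
Col8a1: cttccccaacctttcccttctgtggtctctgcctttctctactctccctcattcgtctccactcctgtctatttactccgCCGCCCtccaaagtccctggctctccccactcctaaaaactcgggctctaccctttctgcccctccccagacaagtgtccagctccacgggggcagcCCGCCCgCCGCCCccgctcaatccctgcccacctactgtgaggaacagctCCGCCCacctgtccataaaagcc
Col18a1: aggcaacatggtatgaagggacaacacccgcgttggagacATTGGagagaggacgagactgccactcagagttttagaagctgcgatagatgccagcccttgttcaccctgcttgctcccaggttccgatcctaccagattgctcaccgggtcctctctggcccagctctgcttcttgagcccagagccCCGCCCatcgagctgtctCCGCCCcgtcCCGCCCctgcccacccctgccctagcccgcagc

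The Col1a2 window held 1 CCAAT box that begins 109 bases before the start and 2 GC boxes, whereas the Col3a1 window held neither and had 1 TATA box match that begins 117 bases before the start. The Col8a1 window held 4 GC boxes. The Col18a1 window shown held 3 GC boxes and 1 CCAAT box, and the window at its other start held none of the 3 motifs. Of the 13 windows of genes that fell, 9 held a GC box (69.2%), against 13 of 25 windows of the other chain genes (52%) and 32.7% of all 32851 windows in the table. A CCAAT box was in 6 of the 13 (46.2%), 7 of the 25 (28%) and 33.8% of all windows. A TATA box was in 1 of the 13 (7.69%), 4 of the 25 (16%) and 12.4% of all. A window counts once however many matches it holds, and some GC boxes of Col6a2 and Col8a2 overlap each other. The 13 windows belong to 12 genes and the 25 to 23. Col6a2, which fell, has 2 windows that overlap in part, and both count among those with a GC box. These are letter matches, given as a description and not tested.

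Type I collagen, the main collagen of bone, tendon and dermis, joins the chains of Col1a1 and Col1a2. Col1a1 signals were 9542, 10735 and 10156 in the MEF arrays, 626, 1024 and 704 in R1 and 1351, 1144 and 1193 in iPS. Every MEF array lay above every other array, and the R1 and iPS arrays did not overlap. The differences from MEF were -3.03 ± 0.15 (SE, adjusted p = 1.51e-07) in iPS cells and -3.70 ± 0.15 (SE, adjusted p = 3.78e-08) in R1 cells. In linear terms the iPS mean was 12.1% and the R1 mean 7.74% of the MEF mean, values that include whatever background signal the probe set has. Col1a2 read 7383, 8023 and 7591 in MEF, 495, 734 and 501 in R1 and 962, 744 and 809 in iPS. The MEF arrays lay above all others and the iPS arrays above the R1 arrays. Its differences from MEF were -3.18 ± 0.15 (SE, adjusted p = 7.98e-08) in iPS and -3.72 ± 0.15 (SE, adjusted p = 2.65e-08) in R1 cells. The difference between the chains of type I was not tested.

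Type III collagen, a trimer of Col3a1 alone, accompanies type I in distensible tissues such as skin and vessel walls. Col3a1 read 3327, 3929 and 3769 in MEF, 228, 290.0 and 202 in R1 and 416, 272 and 333 in iPS arrays. The MEF arrays were all above the rest, and R1 and iPS arrays overlapped. The log2 differences were -3.39 ± 0.16 (SE, adjusted p = 8.63e-08) in iPS and -3.86 ± 0.16 (SE, adjusted p = 3.37e-08) in R1. Type V collagen sits inside type I fibrils and limits their width. Its chain gene Col5a2 had the largest decrease of the fibrillar class, from 2272, 2557 and 2320.2 in MEF to 122, 165 and 129.8 in R1 and 190.0, 174 and 174 in iPS. The 3 groups did not overlap. Col5a2 differed from MEF by -3.62 ± 0.10 (SE, adjusted p = 3.74e-09) in iPS cells and by -3.96 ± 0.10 (SE, adjusted p = 1.96e-09) in R1 cells. The partner chain Col5a1 fell, with -2.77 ± 0.10 and -2.96 ± 0.10, and so did the minor chain Col5a3, with -1.23 ± 0.10 and -1.29 ± 0.10. The call of Col5a3 in iPS cells was lost with a pseudocount of 64.

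Type II collagen is the fibril collagen of cartilage, and type XI its partner. Col2a1 read 809 to 1031 in MEF and 140.1 to 176 in the pluripotent arrays, a difference of -2.31 ± 0.09 in iPS and -2.50 ± 0.09 in R1 cells. Col11a1 fell from 541 to 685 in MEF to 87.4 to 109 in the pluripotent arrays, with -2.49 ± 0.10 and -2.52 ± 0.10. Col11a2, whose chain joins Col11a1 in type XI trimers, was not called, with -0.10 ± 0.07 and a 95% interval of -0.26 to 0.06 in iPS cells, and its arrays overlapped. None of the 10 chondrocyte markers was called in either comparison, and their summed signal was 778 to 947 in MEF, 588 to 613 in R1 and 576 to 596 in iPS arrays. The cartilage proteoglycan Acan read 167 to 224 in MEF and 83.9 to 99.0 in the pluripotent arrays, the regulator Sox9 182 to 313 and 99.0 to 123, and Matn1 27.3 to 39.4 and 35.0 to 46.2. Acan had -0.96 ± 0.09 and -0.98 ± 0.09, and Sox9 -0.88 ± 0.16 and -0.99 ± 0.16. Both had an adjusted p under 0.05 in each comparison and missed the minimum of a call. The same held for Sox5, Sox6 and Hapln1, which were lower than in MEF. It also held for Matn3, which was higher, with 0.38 ± 0.10 and 0.55 ± 0.10. Differences from MEF were above 0 for 2 of the 10 markers in iPS and 3 in R1 cells. The part of these markers in the values of Col2a1 and Col11a1 was not tested.

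The other fibrillar genes were not called. Col27a1, a fibrillar collagen found in cartilage, read 193, 215 and 195 in MEF, 159.8, 138 and 154 in R1 and 176, 155 and 146 in iPS arrays. The MEF arrays were above the others, yet the differences of -0.31 ± 0.08 (SE, adjusted p = 0.00704) and -0.38 ± 0.08 (SE, adjusted p = 0.00206) were below the minimum of a call. Col24a1 had -0.20 and -0.18 and was not called.

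**Figure D2:**
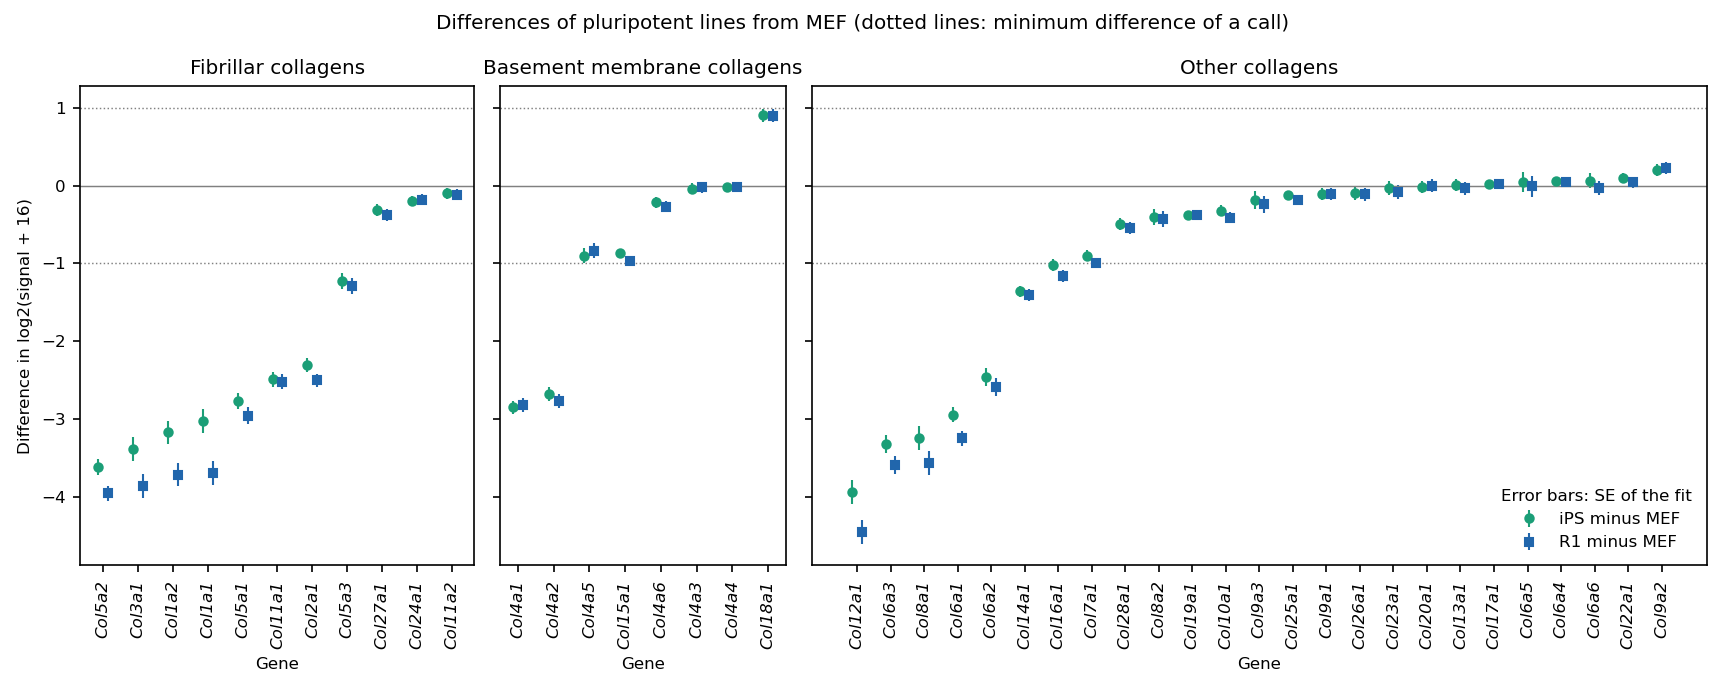
Difference in log2(signal + 16) from MEF for each collagen chain gene, by class, with circles for iPS cells, squares for R1 cells and bars of 1 SE of the fit (3 arrays per group). Dotted lines mark the minimum difference of a call, and the symbols of both lines lie below it for the same 17 genes, with Col12a1 lowest and Col18a1 as the highest point at 0.90 in both lines.

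In basement membranes, the common type IV trimer is made of Col4a1 and Col4a2. Col4a1 read 1342, 1574 and 1314 in MEF, 172, 204 and 179.8 in R1 and 193, 185 and 165 in iPS arrays. Col4a2 read 1168, 1314 and 1144 in MEF, 144, 190.0 and 156 in R1 and 176, 179.8 and 168 in iPS arrays. For both genes all MEF arrays were higher than all others, while R1 and iPS arrays overlapped. Col4a1 changed by -2.85 ± 0.09 (SE, adjusted p = 8.19e-09) in iPS and -2.82 ± 0.09 (SE, adjusted p = 6.82e-09) in R1 cells. Col4a2 changed by -2.68 ± 0.09 (SE, adjusted p = 1.38e-08) and -2.78 ± 0.09 (SE, adjusted p = 9.13e-09). The 2 genes lie head to head on chromosome 8 with annotated starts 21 bases apart on opposite strands, so each window of 250 bases before a start runs into its partner.

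Col4a3, Col4a4, Col4a5 and Col4a6 encode the chains of the more restricted type IV networks, known from kidney, testis and smooth muscle. Col4a3 and Col4a4 differed from MEF by -0.04 and -0.02 in iPS cells, with 95% intervals of -0.20 to 0.12 and -0.13 to 0.10. Col4a5 came close to a call, with 140.1 to 159 in MEF and 63.6 to 88.6 in the pluripotent arrays, which is -0.90 ± 0.09 in iPS and -0.84 ± 0.09 in R1 cells. It was called in iPS cells without iPS replicate 1. Col4a6 had -0.21 and -0.27.

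Col18a1, whose C-terminal fragment is the angiogenesis inhibitor endostatin, read 296, 345 and 317 in MEF, 592, 560.3 and 676 in R1 and 568, 626 and 639 in iPS arrays. All pluripotent arrays lay above all MEF arrays and the R1 and iPS arrays overlapped. The difference was 0.90 ± 0.08 (SE, adjusted p = 8.09e-06) in iPS and 0.90 ± 0.08 (SE, adjusted p = 8.03e-06) in R1 cells, below the minimum of 1, so the gene was not called. It was the one chain gene whose iPS arrays all exceeded the MEF arrays. Col15a1 read 206, 215 and 221 in MEF, 109.9, 98.4 and 97.7 in R1 and 114, 111 and 106 in iPS. Its differences of -0.87 ± 0.05 (SE, adjusted p = 5.87e-07) and -0.97 ± 0.05 (SE, adjusted p = 2.47e-07) also missed the minimum, although it was called in R1 cells without R1 replicate 1. Of 12 markers of primitive and parietal endoderm, an embryonic tissue rich in type IV collagen, 1 was higher and 5 lower in iPS cells and 1 higher and 4 lower in R1 cells. Their summed signal was 11571 to 12369 in MEF, 3441 to 3849 in R1 and 3500.5 to 3916 in iPS arrays, and their part in the basement membrane values was not tested. Most of the MEF sum came from Sparc, Lamb1, Dab2 and Pdgfra, with MEF means of 6735, 2206, 1109 and 884. The sum therefore says little about the other markers of the list. Pdgfra is in this list and in the fibroblast list. Lama1, a laminin chain of basement membranes, was the one called higher, with 1.79 ± 0.07 and 2.11 ± 0.07. The transcription factors of the list did not move one way. Gata6 was called lower in iPS cells, with -1.08 ± 0.08, and had -0.69 ± 0.08 in R1 cells, not called. Sox7 had 0.28 ± 0.07 and 0.30 ± 0.07, not called. Gata4 read 114 to 124 in MEF and 105 to 142 in the pluripotent arrays, and Sox17 31.3 to 42.8 and 38.3 to 53.1.

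Among the other classes, fibril-associated collagens sit on the surface of fibrils. Col12a1, the gene of type XII collagen, had the largest decrease of all 44, from 3350.1, 4068 and 3717 in MEF to 131, 189 and 146 in R1 and 282, 208 and 197 in iPS arrays. Every MEF array was above every other array, and every iPS array was above every R1 array. The log2 differences were -3.94 ± 0.15 (SE, adjusted p = 2.69e-08) in iPS and -4.45 ± 0.15 (SE, adjusted p = 1.07e-08) in R1 cells. The iPS mean was 6.17% and the R1 mean 4.18% of the MEF mean. Col14a1 also fell, with -1.36 in iPS and -1.41 in R1 cells, as did Col16a1, with -1.02 and -1.17. Col16a1 lost its call in iPS cells without MEF replicate 2, without iPS replicate 3 and with a pseudocount of 64, which also ended its call in R1 cells. The 3 chains of type IX, a cartilage collagen, were not called, with differences of -0.11 for Col9a1, 0.20 for Col9a2 and -0.18 for Col9a3 in iPS cells.

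Type VI collagen forms beaded filaments near the cell surface from Col6a1, Col6a2 and Col6a3 or a relative of it. Col6a1 read 1911, 2179.8 and 2091 in MEF, 204, 232 and 172 in R1 and 259.6, 239 and 259.6 in iPS arrays. Col6a3 read 2165, 2798 and 2241 in MEF, 189, 205 and 158 in R1 and 236, 201 and 236 in iPS. The MEF arrays of both genes stood above all others, and the iPS arrays stood above the R1 arrays for Col6a1 but not for Col6a3. Col6a1 changed by -2.95 ± 0.10 (SE, adjusted p = 1.01e-08) in iPS and -3.25 ± 0.10 (SE, adjusted p = 5.18e-09) in R1 cells, and Col6a3 by -3.33 ± 0.12 (SE, adjusted p = 1.69e-08) and -3.59 ± 0.12 (SE, adjusted p = 9.00e-09). Col6a2 changed by -2.47 and -2.59. The chains that can replace Col6a3 were not called, with 0.05 for Col6a4, 0.05 for Col6a5 and 0.06 for Col6a6 in iPS cells, and the MEF arrays of each overlapped both other groups. The second probe set of Col6a5, which was dimmer, had 0.46 in iPS and 0.31 in R1 cells, and that of Col6a6 -0.005 and -0.06.

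Col8a1 encodes a short-chain collagen of vessel walls and the eye. It read 1574, 1361 and 1409 in MEF, 97.7, 143 and 86.2 in R1 and 156, 142 and 117 in iPS arrays, with the MEF arrays again above the rest and the others overlapping. The differences were -3.25 ± 0.16 (SE, adjusted p = 1.06e-07) and -3.57 ± 0.16 (SE, adjusted p = 5.11e-08). Its partner Col8a2 was not called, with -0.41 ± 0.10 and -0.43 ± 0.10. Col7a1, the chain of the anchoring fibrils that fasten epidermis to dermis, read 331, 343 and 309 in MEF, 162, 143 and 164 in R1 and 177, 170.1 and 155 in iPS. With -0.90 ± 0.07 (SE, adjusted p = 2.25e-06) and -0.99 ± 0.07 (SE, adjusted p = 1.06e-06) it lay just outside the call, next to Col16a1 just inside it. It was called in R1 cells when MEF replicate 3, R1 replicate 1 or R1 replicate 3 was left out. Of 5 epidermal markers 0 were called in the fit against MEF, and their sums were 285 to 325 in MEF and 263 to 282 in the pluripotent arrays.

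The 4 membrane-spanning collagen genes were not called. Their differences from MEF in iPS cells were 0.01 for Col13a1, 0.02 for Col17a1, -0.03 for Col23a1 and -0.12 for Col25a1. The growth-plate collagen Col10a1 had -0.33, and Col19a1, Col20a1, Col22a1, Col26a1 and Col28a1 lay between -0.50 and 0.10. Without detection calls, dim signals of these genes cannot be told apart from background, and equal readings do not show equal RNA levels.

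Position offers a grouping that the name rule did not use. In RefSeq's gene order, 8 pairs of chain genes are neighbours with no other protein-coding gene between them. In 3 pairs both genes fell in both comparisons, namely Col3a1 with Col5a2, Col4a1 with Col4a2, and Col6a1 with Col6a2. In the other 5, Col9a1 with Col19a1, Col4a3 with Col4a4, Col4a5 with Col4a6, Col6a4 with Col6a5 and Col6a5 with Col6a6, neither was called. This is a count of pairs and was not tested.

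When iPS and R1 cells were set directly against each other, Col1a1 was the one chain gene that passed an adjusted p of 0.05, higher in iPS cells and below the minimum of a call. In limma, 0 of the 44 genes were called, where 0.461% of all genes were. At an unadjusted p under 0.05, 8 were higher in iPS cells and 0 lower, against 9.66% of all genes higher and 2183 of 19938 lower. At an adjusted p under 0.05 without a minimum difference, 1 was higher and 0 lower, against 4.12% and 4.4% of all genes. That gene was Col1a1, with 0.67 ± 0.15 (SE, adjusted p = 0.0288) and a 95% interval of 0.32 to 1.01. The difference was above 0 for 35 of the 44 and for 47% of all genes, and every iPS array exceeded every R1 array for 7 of the 44 and for 9.84% of all genes. The 7 were Col1a1, Col1a2, Col2a1, Col5a2, Col6a1, Col12a1 and Col25a1. The median over the 44 was 0.06, beside -0.01 for all genes.

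The 8 largest differences were those of genes that fell against MEF in both lines. Beside Col1a1 they were Col1a2 with 0.54 ± 0.15 (SE, adjusted p = 0.0516), Col12a1 with 0.52 ± 0.15 (SE, adjusted p = 0.0735), Col3a1 with 0.47 ± 0.16 (SE, adjusted p = 0.111) and Col5a2 with 0.34 ± 0.10 (SE, adjusted p = 0.0669). Col6a1 had 0.30 ± 0.10 (SE, adjusted p = 0.0909), Col8a1 0.32 ± 0.16 (SE, adjusted p = 0.289) and Col6a3 0.27 ± 0.12 (SE, adjusted p = 0.237). Of these, only Col1a1 passed the adjusted threshold. The basement membrane chains Col4a1 and Col4a2 had -0.03 and 0.09, with 95% intervals of -0.23 to 0.17 and -0.11 to 0.30, and Col18a1 had 0.01 (-0.18 to 0.19). Of the 17 genes below MEF in both lines, 16 had a positive difference with a median of 0.20. The other 27 had a median of 0.02, with 19 above 0 and a range of -0.06 to 0.10. Differences between genes were not tested.

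**Figure D3:**
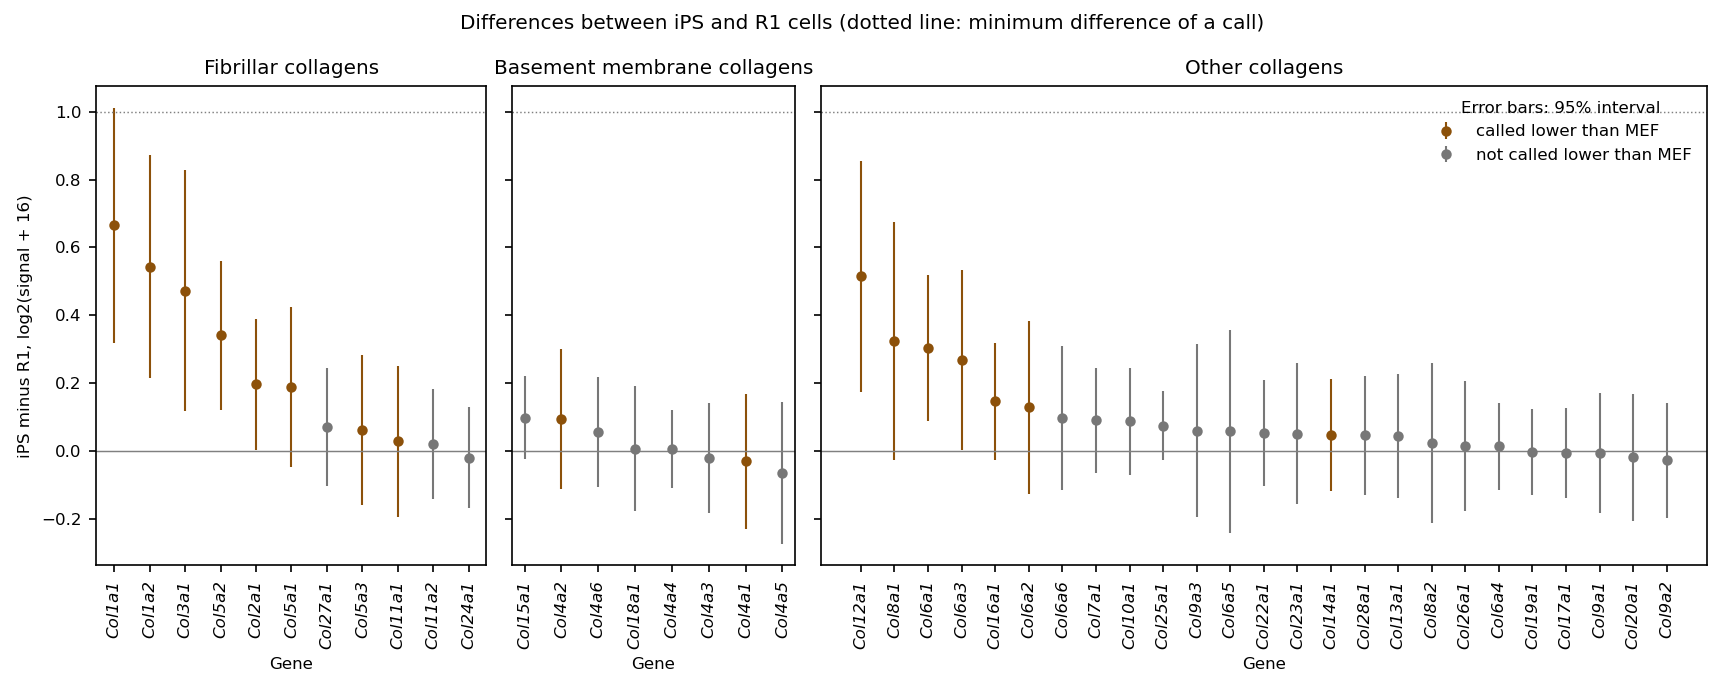
Difference in log2(signal + 16) between iPS and R1 cells for each collagen chain gene, by class, with bars of the 95% interval. Brown points are the genes that fell in both lines against MEF, grey points the rest, no point reaches the dotted line at 1, and Col1a1 at 0.67 is the highest.

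One R1 array bears on these values. Among the 17 genes, R1 replicate 2 was the highest R1 array for 12, against 31.9% of all genes, and R1 replicate 3 for 0. R1 replicate 2 was highest for 4 of the other 27 chain genes, for 6 of 10 fibroblast markers and for 4 of 5 smooth muscle markers. The fibroblast marker sums were 1383, 1665 and 1310.3 in R1 replicates 1 to 3. The skeletal muscle marker sums went the other way, with 710.5, 613.5 and 689.6, lowest in R1 replicate 2. Of the iPS arrays, replicate 1 was the highest for 16 of the 17 genes, for 25 of the other 27 and for 44.4% of all genes, and its fibroblast marker sum was 1787, beside 1590 and 1721. Without iPS replicate 1, differences from R1 cells were above 0 for 25 of the 44 chain genes and 15 of the 17. At an unadjusted p under 0.05, 5 of the 44 were then higher and 1 lower, and without R1 replicate 3 the numbers were 5 and 0. The shares of all genes in these fits were not counted, and in the full fit 9.66% were higher. Without R1 replicate 2, 6 chain genes passed an adjusted p of 0.05 as higher in iPS cells, against 4.11% of all genes, and none reached a difference of 1. They were Col1a1 (0.87 ± 0.09, adjusted p = 0.00108), Col1a2 (0.73 ± 0.10), Col12a1 (0.65 ± 0.14), Col8a1 (0.51 ± 0.11), Col5a2 (0.46 ± 0.07) and Col6a1 (0.40 ± 0.08). With any other R1 or iPS array left out the number was 0, and the adjusted p of Col1a1 was then up to 0.0980. Without MEF replicate 3, which enters through the shared spread, it was 0.0534. The fibroblast markers had a median difference of 0.16 between iPS and R1 cells, 8 of 10 were above 0 and 0 were called. Without a minimum difference 2 of them passed as higher in iPS cells, Prrx1 with 0.53 ± 0.12 (SE, adjusted p = 0.0235) and Twist2 with 0.23 ± 0.06 (SE, adjusted p = 0.0412). Of the 5 smooth muscle markers, 2 were called higher in iPS cells, Acta2 and Tagln. Their part in the collagen differences was not tested.

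Collagen chains need a dedicated set of enzymes and carriers before they can leave the cell. Genes for these steps and for collagen receptors were taken from 4 lists of 44 genes, of which 41 were measured. Of the 41, 23 fell and 0 rose in iPS cells, and 25 fell and 0 rose in R1 cells, against the called shares of all genes given above. At an unadjusted p under 0.05 the number higher was also 0, against 5394 of all 19938 genes in iPS and 5642 in R1 cells. Their median difference from MEF was -1.44 in iPS and -1.49 in R1 cells, beside 0.02 for all genes in each comparison. Between iPS and R1 cells 0 of the 41 were called, where 0.461% of all genes were.

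Chain modification and folding takes place in the endoplasmic reticulum, and 12 of 17 such genes fell in iPS and 11 of 17 in R1 cells. Serpinh1, the collagen-specific chaperone Hsp47, read 2048, 2034 and 2165 in MEF, 142, 187 and 141 in R1 and 232, 204 and 193 in iPS arrays. The 3 groups did not overlap. It changed by -3.22 ± 0.10 (SE, adjusted p = 9.87e-09) in iPS and -3.61 ± 0.10 (SE, adjusted p = 4.58e-09) in R1 cells, and the iPS arrays exceeded R1 by 0.39 ± 0.10 (SE, adjusted p = 0.0487), below the minimum of a call. P4ha3, a catalytic subunit of prolyl 4-hydroxylase, changed by -2.73 and -2.77, and P3h4, a scaffold for lysyl hydroxylation, by -2.93 and -2.68. P4hb, the disulfide isomerase that is the other prolyl 4-hydroxylase subunit and serves many other proteins, read 5008 to 5113 in MEF and 2385 to 2592 in the pluripotent arrays. It was at the threshold, with -0.999 in iPS cells (not called, but called when MEF replicate 1 or 3 or iPS replicate 3 was left out, and with quantile normalization, median centring, a pseudocount of 1 or array weights) and -1.03 in R1 cells (called, but not without R1 replicate 1). The lysyl hydroxylase Plod2 was not called, with -0.39 ± 0.10 and -0.53 ± 0.10.

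Of 8 genes for procollagen export 4 fell in iPS and 5 in R1 cells. Creb3l1, a membrane-bound transcription factor of secretory cells, changed by -2.85 ± 0.10 and -2.54 ± 0.10, its relative Creb3l2 by -2.27 ± 0.15 and -2.24 ± 0.15, and Sec24d, a cargo adaptor of the vesicle coat, by -2.44 ± 0.09 and -2.12 ± 0.09. Propeptides are cut off outside the cell, and 3 of 7 genes for this step fell in each line. The procollagen C-proteinase gene Tll1 read 1144, 1168 and 1053 in MEF, 60.1, 103 and 46.9 in R1 and 83.9, 89.9 and 99.0 in iPS arrays, a difference of -3.41 ± 0.19 in iPS and -3.78 ± 0.19 in R1 cells, with the MEF arrays apart from the rest. Bmp1, a related proteinase, changed by -2.14 ± 0.12 and -2.55 ± 0.12. The enhancer of that cleavage, Pcolce, changed by -2.13 ± 0.10 and -1.64 ± 0.10, and its iPS arrays lay below R1, with -0.49 ± 0.10 (SE, adjusted p = 0.0158), not called.

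Collagen receptors fell in part, with 4 of 9 called in iPS and 6 of 9 in R1 cells. Ddr2, a receptor tyrosine kinase for fibrillar collagen, read 1820.3, 2034 and 2034 in MEF, 119, 148 and 134 in R1 and 133, 158 and 151 in iPS arrays. It changed by -3.60 ± 0.08 (SE, adjusted p = 1.96e-09) and -3.72 ± 0.08 (SE, adjusted p = 1.37e-09). Ddr1, its epithelial relative, had -0.58 ± 0.08 in iPS cells, not called, and changed by -1.07 ± 0.08 in R1 cells, and the difference between the lines was 0.49 ± 0.08 (SE, adjusted p = 0.00665), below the minimum. The same held for Itga1, the integrin subunit alpha 1, with -0.55 ± 0.16 in iPS and -1.41 ± 0.16 in R1 cells. Itga1 read 206, 278 and 252 in MEF, 73.0, 108 and 68.6 in R1 and 186, 159 and 144 in iPS arrays, 3 groups that did not overlap. Its difference between the lines was 0.87 ± 0.16 (SE, adjusted p = 0.00975), and it was called without R1 replicate 2, at 1.04. Itga11, an integrin subunit of fibroblasts that binds type I collagen, changed by -2.14 ± 0.19 and -2.09 ± 0.19. Mrc2, which takes up collagen fragments, changed by -2.37 ± 0.12 and -2.57 ± 0.12, and Itga2 was not called.

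**Figure D4:**
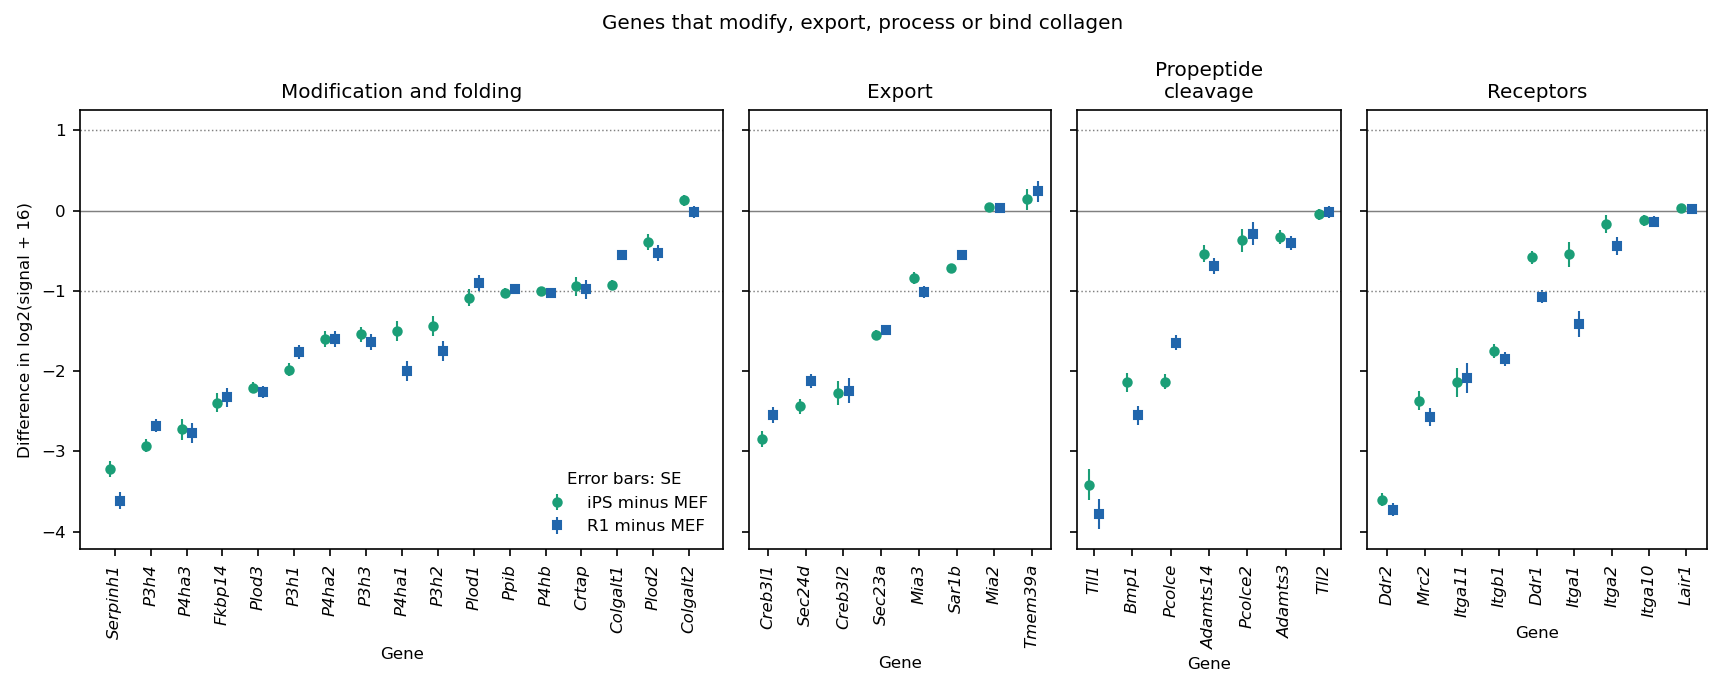
Difference in log2(signal + 16) from MEF for 41 genes that modify, export, cleave or bind collagen, with circles for iPS cells, squares for R1 cells and bars of 1 SE. Most symbols lie below 0, Serpinh1, Tll1 and Ddr2 are the lowest of their panels, and no symbol reaches the upper dotted line at 1.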

How the data were processed

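The authors deposited a table of intensity on a linear scale, with a value for each probe set on each array. Per the submitters' processing notes GCOS 1.4 was used, without a stated role. The sources used here do not state background correction, summarization or normalization. Probe sets were named from the platform annotation, in which 21789 of 35557 had 1 symbol, 1621 several and 12147 none, and 21698 were found in RefSeq with the same symbol. Only those with 1 symbol were used, with 1 probe set per gene, the one with the highest mean, which gave 19938 genes.

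The analysis used log2(signal + 16) and limma 3.58.1 under R 4.3.3, with its lmFit and eBayes functions. The 3 groups were fitted together over 9 arrays, which leaves 6 residual degrees of freedom. Benjamini-Hochberg adjustment ran over all 19938 genes. Adjusted p-values in the text are limma's. The fit was run on simulated data for iPS against MEF only, with 100 changed genes at each of the sizes 1.25 and 2. In both, 100% were recovered with 0 false calls. Smaller sizes and iPS against R1 were not simulated.

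Classes, pathway lists, markers and the rule for named genes were chosen with earlier results of these data known. Values in every array are given for Col1a1, Col1a2, Col3a1, Col4a1 and Col4a2, for the 4 largest called differences in each class and comparison, and for genes with a mean of 200 or more in a group that were not called against MEF. Genes called higher, or called between iPS and R1 cells, would also have been named, and there were 0. Trimer partners are named beside them, and any other chain gene with a value was chosen after its values were seen. Of each pathway list the 3 largest called differences and 8 preset genes are named. The number of arrays limits the precision. Promoter sequences are RefSeq's for GRCm38.p6.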

Additional observations from a re-analysis of the deposited data

How the results depend on the processing

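Both comparisons with MEF kept their direction under all alternatives: other normalizations, pseudocounts of 1 and 64, dim genes left out, probe sets averaged or all tested, an intensity trend, array weights, fits of 2 groups and each array left out. At the same minimum difference the chain genes called were 15 to 18 in iPS against MEF and 16 to 19 in R1 against MEF, all lower, and 0 in iPS against R1. With each array left out in turn they were 16 to 18, 17 to 19 and 0. With no minimum difference they were 28, 30 and 1, and with a minimum of 2 they were 14, 14 and 0. A pseudocount of 64 ended the calls of Col16a1 in both comparisons and of Col5a3 in iPS cells, and Ddr1 lost its call in R1 cells. A larger pseudocount shrinks log2 differences by construction. In the main fit these were -1.02 and -1.17 for Col16a1, -1.23 for Col5a3 and -1.07 for Ddr1. Median centring and a pseudocount of 1 each added Col7a1 and Col15a1 in R1 cells. Pathway genes called were 22 to 25 in iPS against MEF and 23 to 27 in R1 against MEF, and 14 and 13 at a minimum difference of 2. In iPS against R1 they were 0 to 1 with each array left out. With no minimum difference 6 passed there, 4 higher and 2 lower, against 4.12% and 4.4% of all genes.

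In iPS against R1 the values of Col18a1 (-0.050 to 0.081) and Col4a1 (-0.077 to 0.034) changed sign when single arrays were left out, and the cause was not tested. With the replicate number as a block, calls were 17, 17 and 0 for chain genes and 23, 25 and 0 for pathway genes. The block changed no call. Arrays of the same number correlated in their deviations from the group means at -0.08 to 0.24, above 0.1 in 4 of 9 pairs, and not every array correlated best with its own number, so the numbers were not taken as pairs. Signal near background and 3 arrays per group limit what dim chain genes can show.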
